A study of Caenorhabditis elegans with 4 samples.

Results

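The genes that induce the vulva of Caenorhabditis elegans were examined in wild-type animals of the L3 stage, the third larval stage, in which vulval precursor cells receive their fates. The set was named by gene symbol and not by any measured value, though with earlier results of these data known. It held the EGF-like ligand gene lin-3, the EGF receptor gene let-23, the Ras gene let-60, the Raf gene lin-45 and the MEK gene mek-2. It also held the MAP kinase gene mpk-1, the MAP kinase phosphatase gene lip-1, the transcription factor genes lin-1 and lin-31, and the Notch receptor gene lin-12. Of these 10 genes, 8 had a probe annotated with that symbol, 1 probe each, and all 8 were measured on 4 of 4 arrays, out of 19943 genes and probes tested. lin-45 and mek-2 had no such probe and are not analysed here.

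In the textbook account, the anchor cell of the gonad secretes LIN-3, and the nearest precursor cell, which receives most of it, activates LET-23, then LET-60 Ras and the kinase cascade that ends in MPK-1. Active MPK-1 acts on the transcription factors LIN-1 and LIN-31, and the cell takes the primary fate. That cell then signals to its neighbours through LIN-12 Notch, which gives them the secondary fate and raises antagonists of MPK-1 such as LIP-1. Only a few cells of the larva take part in this, and many of the same genes also act in other tissues, the germ line included.

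There was 1 group, RNA of 4 numbered preparations of wild-type L3 larvae, each hybridised on its own 2-colour DNA microarray. A wild-type mixed reference RNA was in the first channel and the L3 RNA in the second. The labels do not say what the reference was mixed from, nor do they name the strain, sex or cultures of the animals. Since the preparations may be repeats of 1 culture, the p-values cover the spread between them and nothing beyond, and that spread can be technical. Values are log2 ratios centred on each array's median. The dyes are not labelled, so L3 over reference is only the likely direction, taken from the order of words in the sample descriptions. A positive value means more transcript in L3 relative to the reference. The arrays measure whole animals, so fewer cells of a type and less RNA per cell cannot be told apart.

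As a set, the vulval induction genes lay close to the reference. Their median log2 ratio was -0.06, beside 0.02 for all genes tested, and 4 of the 8 means were below 0 and 4 above, where 48.4% of all genes had a mean below 0 and 51.6% above. The means ran from -0.69 for mpk-1 to 0.35 for let-60. Of the 8 genes, 6 lay within 1.5-fold of the reference on average, as did 70.1% of all genes measured on 4 arrays. Only lip-1 passed the test (limma, Benjamini-Hochberg adjusted p under 0.05 over all genes tested), on the low side, and 0 genes passed on the high side. Over all genes, 19.1% passed, 10.8% lower and 8.31% higher in L3, so 1 call among 8 genes is near the background. At an unadjusted p under 0.05 there were 2, mpk-1 and lip-1, both lower, and 35.1% of all genes were past that mark, 18.3% lower and 16.9% higher.

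**Figure D1:**
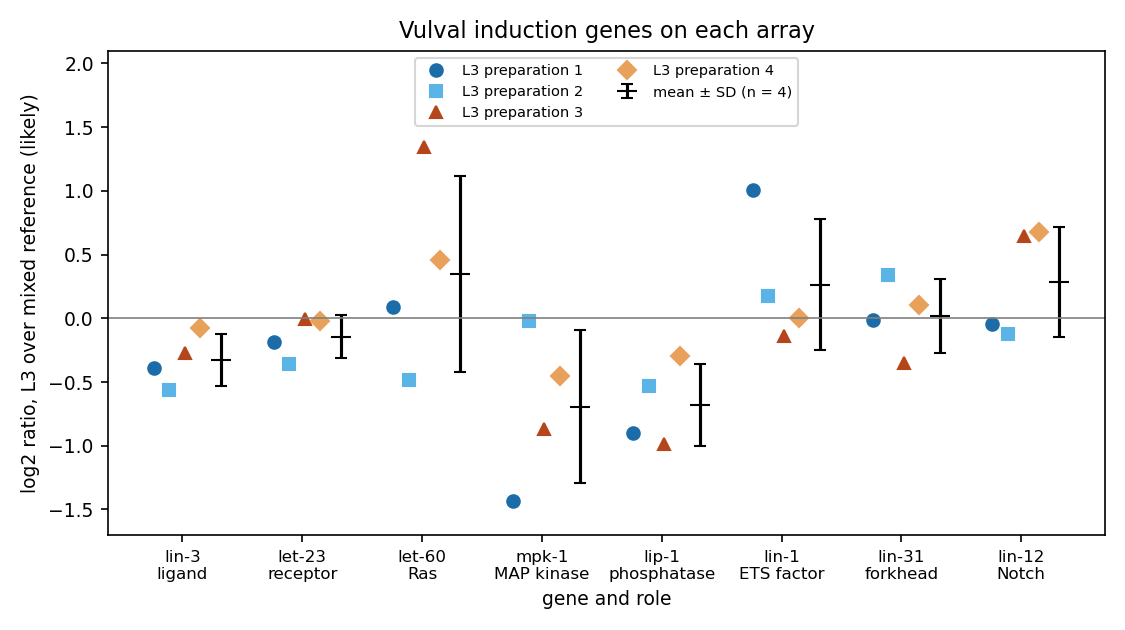
Log2 ratios of L3 over the mixed reference (vertical axis) for the 8 measured genes in the order of their roles; symbols are the 4 L3 preparations and black bars the mean ± SD (n = 4). The lip-1 points all lie below 0, from -0.99 to -0.30, while those of let-60 spread from -0.49 to 1.35.

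The ligand and receptor genes varied little. lin-3, which encodes the inductive signal, had log2 ratios of -0.39, -0.57, -0.27 and -0.08 in preparations 1 to 4, a mean of -0.33 ± 0.21 (SD, n = 4; limma adjusted p = 0.184). All 4 lay below the reference, with preparation 4, on the array with the smallest spread over all probes, nearest to it. The 95% interval of the mean reached from 1.62-fold lower to 1.03-fold higher in L3. The lin-3 probe was annotated with 4 transcripts of the gene, so its value does not separate the isoforms of the ligand. let-23, which encodes the receptor tyrosine kinase for LIN-3, had -0.19, -0.36, -0.01 and -0.02, a mean of -0.14 ± 0.17 (SD, n = 4; limma adjusted p = 0.518). All 4 were again below 0, but 2 were almost at the reference, and the 95% interval ran from 1.41-fold lower to 1.16-fold higher. The SD of let-23 was the smallest of the 8 genes, and only 10.5% of all genes tested had a smaller one. On each array let-23 lay above lin-3, by 0.20, 0.20, 0.26 and 0.06. The mean difference of 0.18 ± 0.09 had the smallest p that 4 arrays allow (exact two-sided sign-flip permutation test, p = 0.125), which is 0.312 after Benjamini-Hochberg adjustment over 5 pairs of genes paired by role.

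Inside the cell, the Ras gene was the most variable of the set and the MAP kinase gene the lowest. let-60, the single Ras protein gene of the pathway, had log2 ratios of 0.09, -0.49, 1.35 and 0.46 in preparations 1 to 4, a mean of 0.35 ± 0.77 (SD, n = 4; limma adjusted p = 0.430). Preparation 3 was far above the reference and preparation 2 below it. The 95% interval ran from 1.28-fold lower to 2.09-fold higher, and 87.7% of all genes tested had a smaller SD. mpk-1, which encodes the ERK-type kinase at the end of the cascade, had -1.43, -0.02, -0.87 and -0.45, a mean of -0.69 ± 0.60 (SD, n = 4), which is 1.62-fold lower in L3. The mpk-1 probe was annotated with no transcript, whereas each other probe of the set had at least 1. All 4 values of the gene were below 0, although preparation 2, on the array with the largest spread over all probes, was at the reference. Its 95% interval, from 2.44-fold to 1.07-fold lower, leaves out 0, but the gene did not pass the adjustment over all genes (limma adjusted p = 0.101). Between let-60 and mpk-1 the mean difference was 1.04 ± 1.14, with let-60 above mpk-1 on 3 of 4 arrays (exact two-sided sign-flip permutation test, p = 0.25, 0.417 adjusted over the 5 pairs).

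lip-1 was the only gene of the set whose difference passed the adjustment, with a mean close to that of mpk-1. It encodes a dual-specificity phosphatase that inactivates MPK-1, and it is a known transcriptional target of LIN-12 signalling in the cells next to the primary one. Its log2 ratios were -0.90, -0.53, -0.99 and -0.30 in preparations 1 to 4. All 4 lay clearly below 0, and preparation 4, on the array with the smallest spread over all probes, was the nearest to the reference. The mean of -0.68 ± 0.32 (SD, n = 4) is 1.60-fold lower in L3, with a 95% interval from 2.15-fold to 1.19-fold lower (limma adjusted p = 0.0418), and 12.5% of all genes had a lower mean. With 3 preparations in the fit the call did not hold, whichever was left out: the adjusted p became 0.152 when preparation 1 was dropped, 0.0737 for preparation 2, 0.143 for preparation 3 and 0.0545 for preparation 4, and the means were -0.81 to -0.58. mpk-1 and its phosphatase gene had nearly the same mean, mpk-1 minus lip-1 being -0.01 ± 0.44, and mpk-1 was the higher of them on 2 of 4 arrays (exact two-sided sign-flip permutation test, p = 0.875, and 0.875 adjusted over the 5 pairs).

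Transcripts of oocytes, a cell type that larvae of this stage have not yet formed, were lower in L3 than any measured gene of the set. All 10 genes of an oocyte marker list passed on the low side, with means from -4.96 to -1.42. The list median was -4.11, which is 17.3-fold lower in L3, and the medians per preparation were -3.95, -4.47, -4.10 and -3.61. Of the 8 vulval induction genes, 4 had a mean below 0 and 4 above. Whether germ line RNA in the reference had a part in the values of these 8 genes was not tested. Of 9 epidermis markers, the tissue from which vulval precursor cells come, 3 were higher and 0 lower (limma, with 3 higher and 1 lower at an unadjusted p under 0.05), with a median of 0.11 and means from -0.49 to 1.30. The higher ones make 33.3% of this list, beside 8.31% of all genes. They were nhr-23, rol-6 and dpy-7, while 4 of the 9 means were below 0, those of elt-1, elt-3, lin-26 and ajm-1. The list as a whole thus did not move to 1 side.

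**Figure D2:**
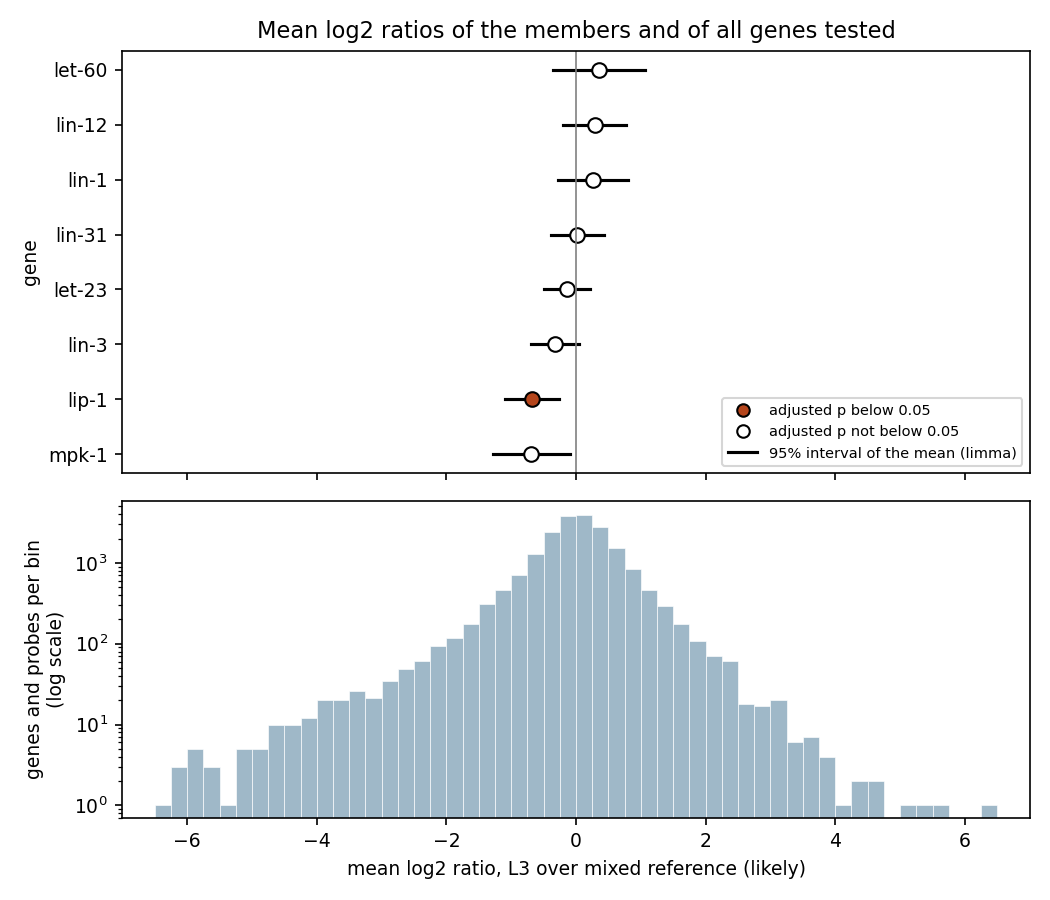
Upper panel, mean log2 ratio (points) and 95% interval (lines) of each measured vulval induction gene, filled where the adjusted p was below 0.05; lower panel, number of genes and probes per bin of mean log2 ratio (log scale) for all 19943 tested. The 8 means, between -0.69 and 0.35, sit in the central part of the distribution, and lip-1 is the filled point.

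The nuclear targets of the cascade were at or near the reference. lin-1, an ETS-family factor that holds back the primary vulval fate until it is phosphorylated, had log2 ratios of 1.01, 0.18, -0.14 and 0.0044 in preparations 1 to 4, a mean of 0.26 ± 0.52 (SD, n = 4; limma adjusted p = 0.432). This mean rested on preparation 1: without it the value was 0.01 (adjusted p = 0.968). The 95% interval ran from 1.21-fold lower to 1.74-fold higher. lin-31, a forkhead-family factor that binds LIN-1 in the precursor cells, had -0.01, 0.34, -0.35 and 0.11, a mean of 0.02 ± 0.29 (SD, n = 4; limma adjusted p = 0.948). Its values fell on both sides of the reference, and its 95% interval, from 1.31-fold lower to 1.34-fold higher, was centred near it. lin-1 was above lin-31 on 2 of 4 arrays, by 0.24 ± 0.55 on average (exact two-sided sign-flip permutation test, p = 0.625, 0.781 adjusted over the 5 pairs).

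The Notch receptor gene lin-12, which acts in the choice of the secondary vulval fate and in the choice of the anchor cell, had log2 ratios of -0.04, -0.12, 0.64 and 0.68 in preparations 1 to 4. Preparations 1 and 2 were at or just under the reference and preparations 3 and 4 clearly above it, with no value between. Such a split, with opposite signs in these pairs of preparations, was seen in 1 of the 8 genes and in 6.7% of all genes on 4 arrays. The mean was 0.29 ± 0.43 (SD, n = 4; limma adjusted p = 0.342), with a 95% interval from 1.14-fold lower to 1.71-fold higher. Without preparation 3 or 4 it was 0.17 and 0.16. The other Notch receptor gene of the worm, glp-1, which acts in the germ line stem cells and the early embryo, had -0.65, -0.41, -0.75 and -0.38, a mean of -0.55 ± 0.18 (SD, n = 4; limma adjusted p = 0.0493). With 3 preparations in the fit it did not pass, whichever was dropped (adjusted p 0.0773 to 0.164). lin-12 lay above glp-1 on every array, by 0.61, 0.29, 1.40 and 1.06. The mean difference of 0.84 ± 0.49 again had the smallest p that 4 arrays allow (exact two-sided sign-flip permutation test, p = 0.125, 0.312 adjusted over the 5 pairs).

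In rising order of mean log2 ratio, the genes were mpk-1, lip-1, lin-3, let-23, lin-31, lin-1, lin-12 and let-60. The steps from mpk-1 to lip-1, from let-23 to lin-31, and each step from there to let-60 were smaller than their SD over the arrays. lin-3 lay above lip-1 by 0.35 ± 0.33 on average and on 3 of 4 arrays, and let-23 above lin-3 by the 0.18 ± 0.09 given above. The spread of the genes was ordinary for these arrays, with a median SD of 0.38 for the 8 genes and 0.36 for all genes tested. A single sign on 4 arrays was seen in lin-3, let-23, mpk-1 and lip-1, which makes 4 of 8, in each of them below 0. Over all genes on 4 arrays, 46.2% kept a single sign, with 23.7% below 0 on every array and 22.5% above. Among 14563 named genes on 4 arrays, the 3 with the values most like those of mpk-1, the lowest gene of the set, were mdt-15, zim-3 and C28A5.2, with root mean square differences of 0.17, 0.19 and 0.21 over the 4 arrays.

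The numbers at the end of the array titles read as dates, with 1 month shared by preparations 1 and 2 and another by preparations 3 and 4. The titles also hold a code, with the letters SJ for preparations 1 and 2, SI for preparation 3 and SL for preparation 4. The pairs thus differ in the code as well as in the month number. The labels do not say what the numbers or the code record. The 2 pairs differed most in let-60, lin-12 and lin-1. let-60 averaged -0.20 in preparations 1 and 2, and 0.90 in preparations 3 and 4. lin-12 averaged -0.08 in preparations 1 and 2, and 0.66 in preparations 3 and 4. lin-1 went the other way, with 0.59 in preparations 1 and 2, and -0.07 in preparations 3 and 4. mpk-1 and lip-1 had similar means in both pairs. They were -0.73 and -0.72 in preparations 1 and 2, and -0.66 and -0.64 in preparations 3 and 4. In a limma fit of the difference, preparations 1 and 2 minus 3 and 4, over 19201 genes, let-60 differed by -1.10 (95% interval -2.15 to -0.05, adjusted p = 0.710), lin-12 by -0.75 (-1.48 to -0.01, adjusted p = 0.718) and lin-1 by 0.66 (-0.28 to 1.61, adjusted p = 0.773). No gene on the arrays passed in this fit (0 of 19201, with 1328 at an unadjusted p under 0.05). The remaining genes of the set differed by at most 0.31 in size between the pairs. Their 95% intervals were wide, such as -1.34 to 1.21 for mpk-1 and -0.99 to 0.84 for lip-1.

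**Figure D3:**
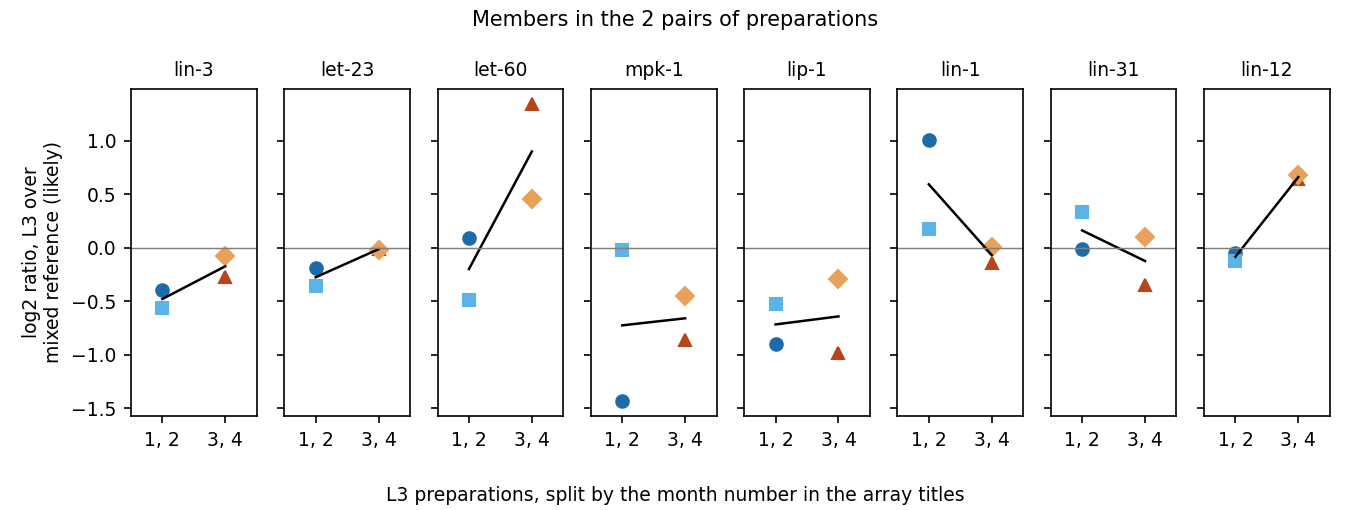
Log2 ratio of L3 over the mixed reference (vertical axis) of each gene in preparations 1 and 2 (left) and 3 and 4 (right), which differ in the month number of the array titles; points are preparations and lines join the pair means. The lines climb for let-60 (-0.20 and 0.90) and lin-12 (-0.08 and 0.66), decline for lin-1 (0.59 and -0.07) and are nearly level for mpk-1 and lip-1.

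Most other genes of the same signalling network did not pass the test either. Of 17 measured genes that help the Ras pathway along, such as adaptors and scaffolds, 1 was lower and 0 higher (limma, with 3 and 3 at an unadjusted p under 0.05; list median 0.13). The lower share of 5.88% is under the 10.8% of all genes. The lower one was sur-6, which encodes a regulatory subunit of protein phosphatase 2A, at -0.71 ± 0.29 (SD, n = 4; adjusted p = 0.0319), a call lost without preparation 1, 2 or 3 (adjusted p up to 0.122). Of 10 genes that restrain the pathway or were found as its modifiers, 1 was higher and 1 lower, shares near the 8.31% and 10.8% of all genes (list median -0.08). sur-5, first found as a suppressor of a let-60 allele and expressed broadly, had 1.25, 2.03, 2.17 and 1.52 in preparations 1 to 4. All 4 lay well above the reference, and the mean of 1.74 ± 0.43 is 3.35-fold higher in L3 (limma adjusted p = 0.00317). lst-1, named as a lateral signal target of LIN-12 and also a regulator of germ line stem cells, had -0.76, -0.80, -1.10 and -0.93, a mean of -0.90 ± 0.15 (limma adjusted p = 0.00959). The calls of sur-5 and lst-1 held without each preparation in turn, with adjusted p up to 0.0172 for sur-5 and up to 0.0483 for lst-1.

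Of 23 measured Notch pathway genes, 6 were lower and 0 higher (limma, with 8 lower and 0 higher at an unadjusted p under 0.05; list median -0.10). The genes that passed make 26.1% of the list, beside 10.8% of all genes lower, a share that depended on which preparations were in the fit. At the unadjusted mark, 8 of 23 were lower, beside 18.3% of all genes. The 4 lowest of those that passed were hop-1, a presenilin gene of the gamma-secretase that cuts Notch (-1.25 ± 0.35, adjusted p = 0.00655), osm-11, a secreted co-ligand gene (-0.89 ± 0.32, adjusted p = 0.0177), aph-1, another gamma-secretase subunit gene (-0.83 ± 0.21, adjusted p = 0.0149), and the kinase gene sel-5 (-0.66 ± 0.28, adjusted p = 0.0388). Dropping preparation 1 or 3 left 1 gene of this list lower, and dropping preparation 2 or 4 left 3. Over all genes, 1092 of 19980 were lower without preparation 1 and 1004 of 20010 without preparation 3. Without preparation 2 it was 1508 of 20029, and without preparation 4 it was 1635 of 19959, against 2149 of 19943 in the full fit. hop-1 held in each case, with adjusted p up to 0.0387.

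The synMuv genes encode chromatin and transcription repressors that keep lin-3 silent outside the anchor cell. Of 21 measured, 3 were lower and 0 higher (limma, with 9 lower and 0 higher at an unadjusted p under 0.05), and 18 of the 21 means were below 0, with a list median of -0.42. The genes that passed make 14.3% of the list, near the 10.8% of all genes, and 48.4% of all genes had a mean below 0. At the unadjusted mark, 9 of 21 were lower, beside 18.3% of all genes, so the comparison with all genes depends on the mark. Those that passed were lin-54, a DNA-binding subunit gene of the DREAM complex, at -1.33 ± 0.31 (adjusted p = 0.00467), dpl-1, the DP gene, at -0.69 ± 0.37 (adjusted p = 0.0480), and efl-1, an E2F gene, at -0.63 ± 0.15 (adjusted p = 0.0305). The products of these 3 genes also act in the germ line. lin-54 passed without each preparation in turn (adjusted p up to 0.0316), while with 3 preparations in the fit dpl-1 and efl-1 never passed (adjusted p 0.0658 to 0.169 for dpl-1, 0.0597 to 0.116 for efl-1).

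Most genes of a list for vulval cell fate and the anchor cell did not pass. Of 19 measured, 2 were higher and 0 lower (limma, with 5 higher and 1 lower at an unadjusted p under 0.05), and 14 means were above 0, with a list median of 0.29. The higher share of 10.5% is near the 8.31% of all genes, and 51.6% of all genes had a mean above 0. The 5 higher and 1 lower of 19 at the unadjusted mark stand beside 16.9% and 18.3% of all genes. Both genes that passed encode cell fusion proteins, which also fuse other cells of the epidermis and of other tissues. aff-1 lay at 1.41 ± 0.94 (SD, n = 4; adjusted p = 0.0371), with 1.41, 1.38, 2.57 and 0.26 in preparations 1 to 4. eff-1 lay at 0.73 ± 0.37 (SD, n = 4; adjusted p = 0.0408). The call of aff-1 was lost without preparation 1, 2 or 3 (adjusted p from 0.0892 to 0.126), and that of eff-1 without 2, 3 or 4 (adjusted p from 0.107 to 0.138).

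**Figure D4:**
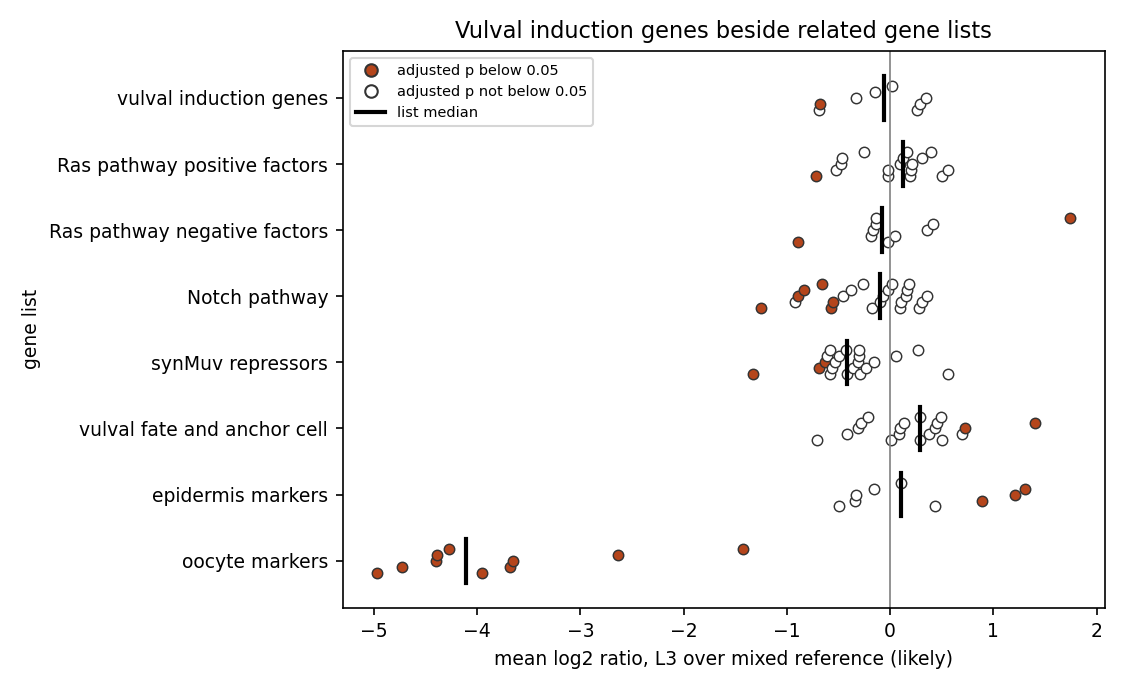
Mean log2 ratio of L3 over the mixed reference (horizontal axis) of each measured gene in 8 gene lists (rows), filled where the adjusted p was below 0.05, with the list median as a black bar. Medians of the 6 signalling lists lie between -0.42 and 0.29, and that of the oocyte markers at -4.11.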

How the data were processed

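The authors deposited a log2 ratio of the channels for each probe on each array. How background, normalization and spot filtering were handled before deposit is not stated in the labels. Raising 2 to the deposited log2 value gave multiples of 0.001 (within 0.02 of a step) for 99.96% to 100.0% of the values on an array. Array medians were between -0.03 and 0.02, Pearson correlations between arrays across probes between 0.620 and 0.723, and 21058 to 21472 of 21632 probes had a value. The spread over probes was unequal, with median absolute deviations of 0.38, 0.58, 0.39 and 0.28 on the arrays of preparations 1 to 4. Signal over background is unknown, so the 4 arrays limit the precision. A dye or channel bias that repeats on every array cannot be told apart from an RNA difference.

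Probe symbols were updated through Entrez gene numbers (RefSeq WBcel235 names). The median of every array was set to 0, and probes of a gene were averaged. Genes with values on at least 3 arrays were tested against 0 with limma 3.58.1 in R 4.3.3 (intercept only, two-sided, Benjamini-Hochberg). The test leaves out the reference's own spread. The fit was tested on simulated data. The intervals are not adjusted. No coordinates or sequences are given, because the probes' build and sequences were not used here. Every gene of the set is named. Of each of the 5 pathway lists, up to 4 passing genes with the largest mean in size are named, and glp-1 as the other Notch receptor gene. Of the marker lists counts and ranges are given, and of the epidermis markers those that passed and those with a mean below 0 are named. The genes, lists and pairs were chosen with earlier results of these data known.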

Additional observations from a re-analysis of the deposited data

Results flagged for a closer look

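lin-12 was below 0 in preparations 1 and 2 and above 0 in preparations 3 and 4, a difference of -0.75 (preparations 1 and 2 minus 3 and 4), with pair means of -0.08 in preparations 1 and 2, and 0.66 in preparations 3 and 4. Such opposite signs were seen in 6.7% of all genes on 4 arrays. The difference did not pass over all genes (limma adjusted p = 0.718). No preparation of the 8 genes stood apart by Dixon's test at its 95% critical value, the highest ratio being 0.725 for lin-1.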

How the results depend on the processing

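Each of the 8 genes was refitted under 13 alternatives. The only call, lip-1, held with values as deposited, arrays scaled to a common spread, quantile normalization, a value on at least 2 or on all 4 arrays, probe level and the month as a random block. The settings on array number, probe level and month kept the same 4 values of lip-1, with a mean of -0.68. The call was lost without any 1 preparation (0 genes of the set called in limma, with 1 to 2 at an unadjusted p under 0.05). It was also lost in preparations 1 and 2 alone (0 called, 1 unadjusted) and in preparations 3 and 4 alone (0 called, 4 unadjusted). All of these fits hold fewer samples, and how many of all genes reached the unadjusted mark in them was not counted. In the full fit 35.1% of all genes did. Over all genes, 1880 to 2720 passed with 1 preparation left out, 1495 in preparations 1 and 2 alone and 1694 in preparations 3 and 4 alone, against 3806. The sign turned for lin-31 with quantile normalization (-0.0033), in preparations 3 and 4 alone (-0.12) and within its range of -0.087 to 0.14 with 1 preparation left out. It also turned for lin-12 (-0.084) and let-60 (-0.20) in preparations 1 and 2 alone, and for lin-1 in preparations 3 and 4 alone (-0.068). The cause was not tested. The direction of lin-3, let-23, mpk-1 and lip-1 was below 0 under all 13. These 4 genes were below 0 on every array, so each refit on fewer preparations had to give that sign. The block correlation of the month was negative (-0.117), which narrows the error of the mean. That fit called 4489 genes, more than the 3806 of the main fit, with an adjusted p of 0.0285 for lip-1 (limma). The lip-1 call in that fit is therefore no check on the month. The difference between the pairs of preparations and the refits of the other named genes were added after the data were seen. No paired analysis was possible because there is 1 group of samples.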
